A study of Mus musculus with 6 samples.

Results

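The cytosolic ribosomal protein genes encode the proteins of the ribosome that translates nuclear messenger RNAs. They were chosen by symbol: a probe set was a member if it named 1 gene whose symbol is Rpl or Rps followed by a number with an optional letter, or Rpsa, Rplp0, Rplp1 or Rplp2, with kinases, pseudogenes and mitochondrial ribosomal proteins left out. This gave 99 probe sets of 45037 on the array, the control probe sets aside, for 45 of the 18193 genes that such probe sets name. The large subunit gave 24 genes, which were Rpl4, Rpl6, Rpl7, Rpl7a, Rpl8, Rpl10a, Rpl11, Rpl12, Rpl13a, Rpl14, Rpl19, Rpl22, Rpl27, Rpl27a, Rpl35, Rpl37, Rpl37a, Rpl38, Rpl39, Rpl41, Rplp0, Rplp2 and the paralogs Rpl3l and Rpl39l. The small subunit gave 21, which were Rps2, Rps3, Rps4x, Rps6, Rps7, Rps9, Rps10, Rps14, Rps15, Rps16, Rps18, Rps19, Rps20, Rps24, Rps25, Rps26, Rps27, Rps28, Rps29, Rpsa and the paralog Rps27l. A further 110 probe sets named a ribosomal protein gene beside other genes and were not members. Rps4l fitted the symbol pattern but is annotated by RefSeq as a transcribed pseudogene and was left out.

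The arrays compared megakaryocytes, the marrow and fetal liver cells that shed platelets, between a Gata-1 knock down and wild type. Progenitors came from mouse fetal livers of embryonic day 13.5, were cultured until they had become megakaryocytes, and the megakaryocytes were collected on a gradient of bovine serum albumin before total RNA was taken. Each group had 3 samples, lettered A, B and C, each on 1 Affymetrix array. The labels do not say how the knock down was made, the strain, or whether the samples of a group came from separate animals or cultures, so the p-values given here speak only to how far these samples vary, and that variation may be technical.

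A ribosome joins a large subunit, which holds the peptidyl transferase centre and the stalk that recruits elongation factors, with a small subunit, which reads the messenger RNA. The proteins are made in near equal numbers, and their messenger RNAs are among the most abundant in most cells and carry a terminal oligopyrimidine tract at the 5′ end, through which mTOR signalling and LARP1 control their translation. In the blood lineage, loss of 1 copy of several of these genes causes Diamond-Blackfan anemia in humans, a failure of red cell production, and GATA1 is a transcription factor that red cells and megakaryocytes both need.

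The targeted gene followed the labels. The Gata1 probe set read 153.5, 143.3 and 194.7 on knockdown arrays A, B and C, and 8723.7, 8246.5 and 8495.6 on wild-type arrays A, B and C. The groups did not overlap, and the fitted log2 change was -5.52 ± 0.12 (SE, n = 3 per group; limma adjusted p = 2.889e-09). Megakaryocyte markers were high in both groups. Marker calls are those of the main comparison described below, on quantile-normalized values, and sums are of deposited signals. Of 9 megakaryocyte markers 7 fell and 0 rose. Of all genes 17.1% fell and 18.3% rose, for comparison with every list here. The summed signal of the 9 was 82835 to 103470 in knockdown against 127590 to 136390 in wild type. By deposited means Pf4 (19982 against 17120) and Itga2b (22763 against 18477) were higher in knockdown. Gp9, Gp1bb, Ppbp, Tubb1, Itgb3, Gp6 and Vwf were lower. Marker lists of other cell types were also lower in knockdown: 6 of 6 macrophage markers fell, with sums of 12176 to 13618 against 26917 to 28194, 5 of 6 neutrophil markers fell, with 2510 to 2619 against 9753 to 10193, and 5 of 6 mast cell markers fell, with 978 to 1160 against 3586 to 4210. Of 4 red cell markers 2 fell and 1 rose, with sums of 2574 to 2760 against 14246 to 14406, and the hepatocyte list, with Apoa1 within background on all arrays, and the lymphoid list each had 1 member that fell and 0 that rose. The part of these lists in the ribosomal protein results was not tested. In such bulk RNA, fewer cells of a type and less RNA per cell cannot be told apart. All values rest on 6 arrays, and that number limits their precision.

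Most of the ribosomal protein genes sat near the top of the signal range on every array. Signals are in the linear units of the deposited table, in which the mean of each array, trimmed by 2% of the probe sets at each end, was the same. The median of the 43 tested member genes, each read at its brightest probe set, was 17384, 21807 and 20622 on knockdown arrays A, B and C, and 16151, 15400 and 15949 on wild-type arrays A, B and C. The array median over all probe sets was only 101.6 to 137.8, and the highest signal of any probe set was 23420, 32655.4 and 28594.8 on the knockdown arrays and 23171.2, 21181.8 and 22223.9 on the wild-type arrays. On each array, 54 to 61 member probe sets read above 50% of that maximum, and 7 to 17 above 80%. The highest signal of knockdown array B was itself that of Rpl41. Among the 100 brightest probe sets by wild-type mean, 50 named a ribosomal protein gene by the symbol rule, alone or beside other genes, and by knockdown mean 70 did. How bright a probe set is also depends on its probes, so the order of genes by signal is not an order of messenger RNA levels. Whether signals this close to the maximum were saturated was not tested, since the deposited table has no saturation flag.

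**Figure D1:**
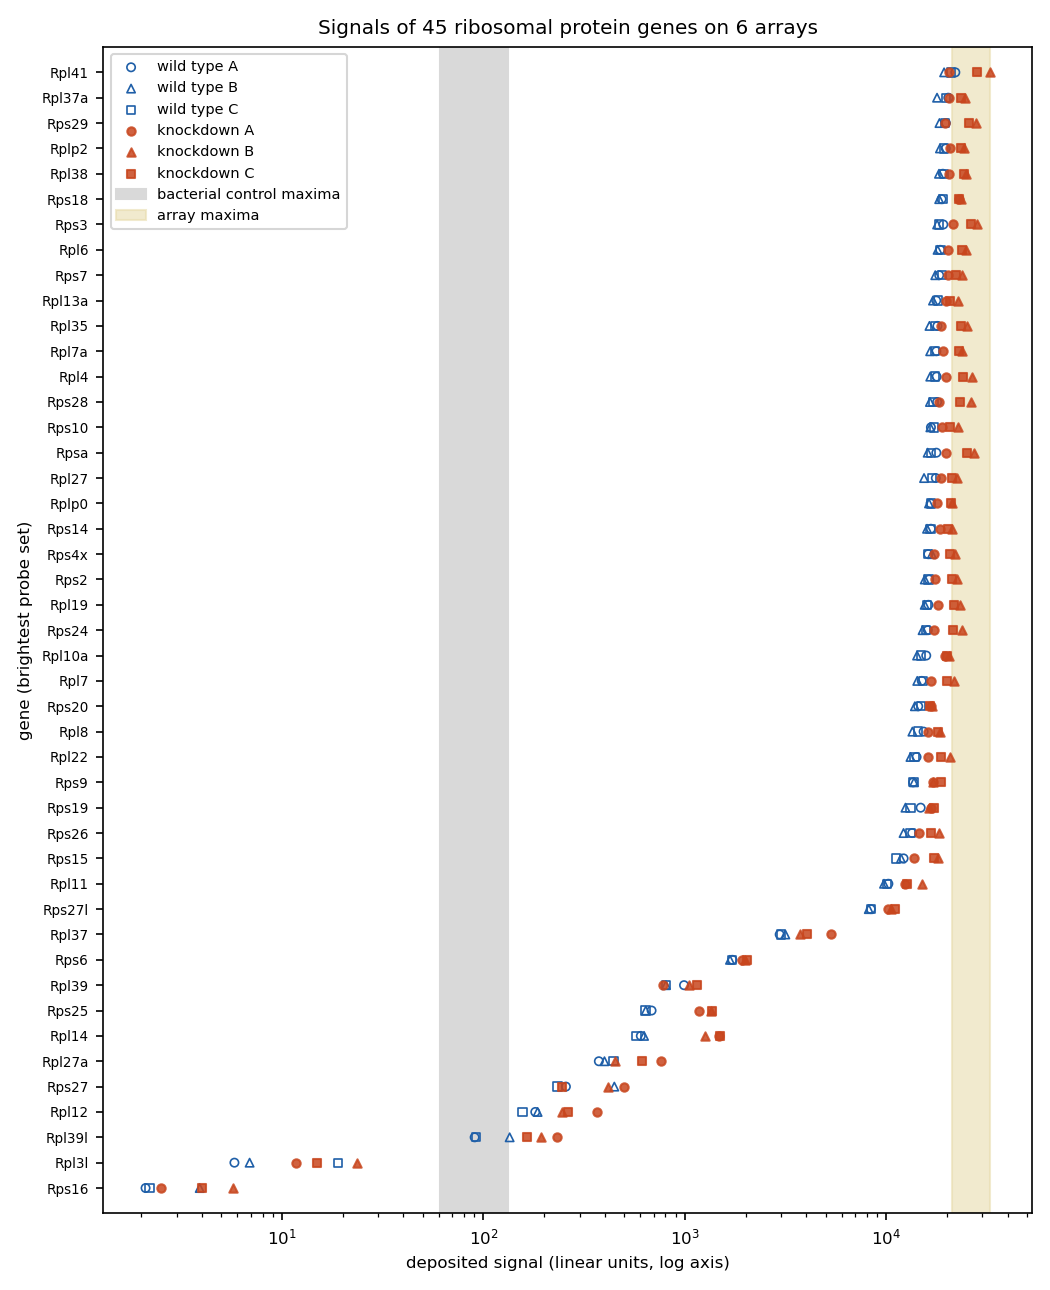
Deposited signal (linear units, log axis) of the brightest probe set of each of the 45 ribosomal protein genes on the 3 wild-type arrays (open blue) and 3 knockdown arrays (filled red), ordered by wild-type mean. Most genes sit within or just below the band of array maxima (21181.8 to 32655.4), Rpl3l and Rps16 lie below the band of highest bacterial control signals (60.7 to 132), and for 39 of the 43 tested genes every knockdown point is to the right of every wild-type point.

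In the deposited signals the ribosomal protein genes were higher in knockdown as a group. Every knockdown array lay above every wild-type array for 39 of the 43 tested genes, against 29.1% of all 14230 genes tested, and no member had the opposite order, which 20.4% of all genes had. The exceptions were Rpl39, Rpl41, Rps27 and Rps29, whose arrays overlapped. The ratio of the knockdown mean to the wild-type mean had a median of 1.27 over the 43 genes and ran from 1.14 to 2.34. Member probe sets made up 3.06% to 3.19% of the summed signal of the wild-type arrays and 3.63% to 4.15% of that of the knockdown arrays, again without overlap. With every probe set that names a ribosomal protein gene counted, the share was 6.78% to 7.06% against 8.05% to 9.30%.

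How many of these differences passed a test depended on the scaling between arrays. The main comparison used limma on quantile-normalized log2(signal + 32) values, which gives all arrays one distribution, and called a probe set at a Benjamini-Hochberg adjusted p of 0.05 over the 31526 probe sets tested. On that scale 16 of 43 genes (37.2%) were called higher in knockdown, against 18.3% of all genes, and 0 were called lower, against 17.1%. The median log2 fold change was 0.13 over the member genes and 0.03 over all genes. By probe set, 41 of 92 (44.6%) were called higher, against 16.1%, and 0 lower, against 14.3%. Of the 43 fitted gene values, 38 were above 0. Both genes left untested, Rpl3l, a paralog made mainly in muscle, and Rps16, whose only probe set that names it alone was dim, lay at or below the highest bacterial control on all 6 arrays.

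With the values as deposited, 39 of 43 genes were called higher and 0 lower, where 21.1% and 16.2% of all genes were, and the median log2 fold change was 0.34 beside 0.12 for all genes. Cyclic loess, which removes trends of the fold change with signal pair by pair, called 38 of 43 higher and 0 lower, where 16.5% and 18.9% of all genes were called, with a median of 0.36 beside 0.0015 for all genes. Centring each array on its median called 7 of 43 higher and 0 lower, where 8.35% and 20.8% of all genes were called, with a median of 0.15 beside -0.08. The 7 were Rpl14, Rps25, Rpl22, Rpl4, Rps15, Rps3 and Rpsa, all of which were also among the 16. By probe set the counts were 72 of 92 as deposited (19.9% of all), 74 under cyclic loess (14.7%) and 18 with median centring (8.28%), with 0 lower in each, where 13.2%, 15.8% and 16.9% of all probe sets were called lower. In each of these scalings the member median lay above that of all genes.

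The ribosomal protein probe sets fill much of the top of the distribution that quantile normalization equalizes. When that normalization was fitted on the probe sets that name no ribosomal protein gene and then applied to all, 24 of 43 member genes and 56 of 92 member probe sets were called higher, and 0 lower, where 18.5% of all genes and 16.3% of all probe sets were called higher, and 16.9% and 14.2% lower. The member median then was 0.20, beside 0.04 for all genes. This setting was added after the data had been seen. The probe sets it was fitted on include those that name no gene. The 106 tested probe sets that name a ribosomal protein gene beside other genes, which the symbol rule leaves out, gave 50 higher and 2 lower in the main comparison and 84 higher and 1 lower as deposited, with medians of 0.16 and 0.37.

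**Figure D2:**
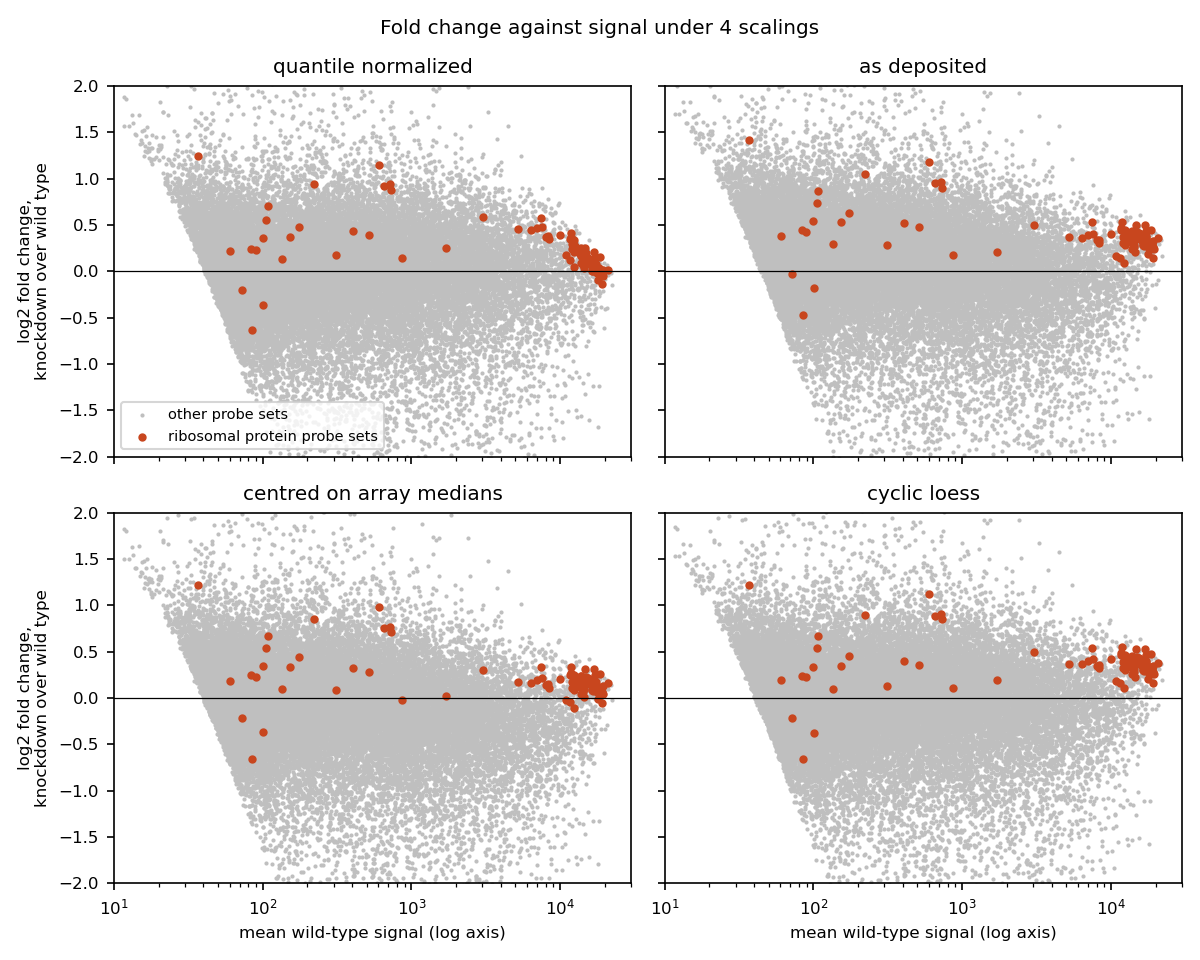
Log2 fold change, knockdown over wild type, against the mean wild-type signal (log axis) for all tested probe sets under 4 scalings, with the 92 ribosomal protein probe sets in red and all others in grey; the vertical axes stop at -2 and 2, beyond which some of the others lie. The red cloud above 13000 lies around 0.34 as deposited and near 0.08 after quantile normalization; grey includes the probe sets that name a ribosomal protein gene beside other genes.

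Quantile normalization and the deposited scale differed most for the brightest probe sets. Of the 47 member probe sets with a wild-type mean of 13000 or more, 14 were called higher in the main comparison and 42 as deposited, with median log2 fold changes of 0.08 and 0.34. The 154 probe sets in that range that name no ribosomal protein gene had medians of -0.16 and 0.04. In the main comparison 15 of them were called higher and 82 lower, and as deposited 32 higher and 49 lower. The 58 in that range that name one beside other genes had medians of 0.07 and 0.35, and 19 of them were called higher and 0 lower in the main comparison. The member median thus lay above that of the 154 under both scalings, a difference for which no test was made. The 154, like the sets without a ribosomal protein name in other ranges, include probe sets that name no gene. Of the 200 brightest probe sets by wild-type mean, 20 name none. Between 3000 and 13000 these scales differed less: 19 of 22 member probe sets were called higher in the main comparison and 18 as deposited, with medians of 0.36 and 0.37, and 5 of 22 after median centring. The 2322 probe sets of that range that name no ribosomal protein gene had a main median of -0.06, with 643 called higher and 887 lower. Of these, 488 were called higher and 995 lower as deposited, and 152 higher and 1223 lower after median centring. The 23 that name one beside other genes had a main median of 0.41, with 21 higher and 0 lower. Between 500 and 3000 there were 7 member probe sets, of which 5 were called higher in the main comparison, as deposited and with cyclic loess, and 4 after median centring. Their main median was 0.88, beside 0.03 for the 8177 that name no ribosomal protein gene. Of the 8177, 2308 were called higher and 2167 lower in the main comparison, and 2414 and 2129 as deposited. With cyclic loess the counts were 2074 and 2390, and after median centring 937 and 2624. Below 500, 3 of 16 member probe sets were called higher in the main comparison, with a median of 0.30. The 20668 that name no ribosomal protein gene had a median of 0.06, with 2000 called higher and 1377 lower. This range moved with the scale as well. As deposited 7 of the 16 member probe sets were called higher, with a median of 0.48. The 20614 tested there that name no ribosomal protein gene had a median of 0.215, with 3155 called higher and 993 lower.

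Genes from both ends of this range are shown first with their promoters, since the members as a class are known for shared promoter elements. Rpl14, a protein of the large subunit, had the largest change. Its signals were 1479.8, 1259.3 and 1485.7 on knockdown arrays A, B and C and 604.3, 627.1 and 574.3 on wild-type arrays A, B and C. Each knockdown array read more than the highest wild-type array by a wide margin, and Rpl14 rose by a log2 value of 1.15 ± 0.09 (SE; limma adjusted p = 5.389e-06). Rps25, a small-subunit protein that some viral and cellular messenger RNAs need for internal initiation, read 1170.6, 1353.0 and 1364.2 in knockdown and 683.3, 639.6 and 637.8 in wild type. Its arrays did not overlap either, and it rose by 0.92 ± 0.09 (limma adjusted p = 3.851e-05). Both kept their call under every scaling tried, with log2 values of 0.99 for Rpl14 and 0.76 for Rps25 at the lowest, after median centring.

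Rpsa, a small-subunit protein also described as a laminin receptor precursor, is one of the bright members and was named after its values were seen. It read 19874.3, 27182.1 and 25105.3 in knockdown and 17728.9, 16050.7 and 16670.6 in wild type. The groups did not overlap, and it rose by 0.21 ± 0.04 in the main comparison (limma adjusted p = 0.001487) and by 0.50 as deposited. The stalk proteins Rplp0 and Rplp2, which together with Rplp1 dock the elongation factors, were bright and showed no call in the main comparison. Rplp0 read 17779.4, 21174.2 and 21025.1 in knockdown and 16595.7, 16299.5 and 16715.4 in wild type, and its fitted change was 0.00053 ± 0.039 (limma adjusted p = 0.9948) but 0.27 as deposited (limma adjusted p = 0.01744). Rplp2 read 20753.0, 24180.9 and 23571.8 against 19751.4, 18470.4 and 19367.7, and its fitted change was -0.04 ± 0.04 (limma adjusted p = 0.5166) but 0.25 as deposited (limma adjusted p = 0.02007). For both, all knockdown arrays read above all wild-type arrays in the deposited signals and the groups overlapped after quantile normalization. No probe set named Rplp1 alone.

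The promoters of these 5 genes are printed from RefSeq, build GRCm38.p6, as 170 bases from 150 before to 20 after the annotated start, 5′ to 3′ on the gene's strand. They lie at chr9:120571367-120571536 on the plus strand for Rpl14, chr9:44407564-44407733 on the plus strand for Rps25, chr9:120127616-120127785 on the plus strand for Rpsa, chr5:115559317-115559486 on the plus strand for Rplp0 and chr7:141447501-141447670 on the plus strand for Rplp2. Capitals mark 3 motifs. They are CCGGAA on either strand, a form of the core that ETS factors bind, and AGATAA on either strand, a form of the GATA motif. The third is a run of at least 10 pyrimidines on the printed strand. ETS core and GATA motif here mean these exact letters, and other forms were not counted.
Rpl14: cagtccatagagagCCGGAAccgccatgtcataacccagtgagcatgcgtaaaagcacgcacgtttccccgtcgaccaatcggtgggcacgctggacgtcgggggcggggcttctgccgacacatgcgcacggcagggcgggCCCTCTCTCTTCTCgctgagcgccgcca
Rps25: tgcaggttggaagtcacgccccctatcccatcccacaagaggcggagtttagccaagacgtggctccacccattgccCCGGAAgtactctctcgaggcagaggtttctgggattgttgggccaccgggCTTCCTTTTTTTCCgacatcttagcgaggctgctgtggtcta
Rpsa: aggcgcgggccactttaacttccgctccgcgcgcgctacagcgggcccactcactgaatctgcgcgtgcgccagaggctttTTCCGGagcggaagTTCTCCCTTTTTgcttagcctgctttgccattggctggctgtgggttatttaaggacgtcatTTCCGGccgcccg
Rplp0: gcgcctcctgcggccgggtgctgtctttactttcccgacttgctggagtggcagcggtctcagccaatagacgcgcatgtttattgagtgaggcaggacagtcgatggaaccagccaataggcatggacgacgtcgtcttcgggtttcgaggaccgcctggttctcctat
Rplp2: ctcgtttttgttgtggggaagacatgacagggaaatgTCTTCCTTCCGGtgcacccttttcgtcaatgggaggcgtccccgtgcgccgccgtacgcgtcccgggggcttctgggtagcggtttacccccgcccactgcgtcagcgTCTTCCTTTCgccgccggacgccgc
Rpl14 and Rps25 each hold 1 ETS core and 1 pyrimidine run, and in both the run lies near the 3′ end of the printed stretch. Rpsa holds 2 ETS cores and 1 run. Rplp0 holds none of the 3 motifs in the printed stretch, and Rplp2 holds 1 ETS core, which overlaps the first of its 2 runs. None of the 5 holds a GATA motif in the printed stretch.

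Over windows of 300 bases, 250 before to 50 after the start, RefSeq gave 48 windows for 40 of the 45 member genes. The ETS core was found in 26 of the 48 (54.2%), against 14.9% of all 32851 windows. A pyrimidine run was found in 33 (68.8%), against 43.8%, and one within 20 bases of the start in 16 (33.3%), against 10.6%. The GATA motif was found in 3 (6.25%), against 11.2%. Within the members, no test was made of called against other genes: the ETS core was present for 10 of the 15 called genes that had a window and for 16 of the 25 others, a run at the start for 7 and 9, and the GATA motif for 1 and 2. These are counts of letters in fixed windows, not of bound sites.

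In the large subunit 7 of 23 tested genes were called higher in the main comparison and 0 lower, their median change was 0.11 (log2), and 21 were called higher as deposited. Of all genes 18.3% were called higher and 17.1% lower in the main comparison and 21.1% higher as deposited. After Rpl14, the largest change was that of Rpl37, a zinc-binding protein. It read 5321.7, 3720.4 and 4039.8 in knockdown and 2955.8, 3153.7 and 3002.2 in wild type. All knockdown arrays were above all wild-type arrays, and it rose by 0.58 ± 0.11 (limma adjusted p = 0.0027), though not after median centring (0.31, limma adjusted p = 0.1843). Rpl11 joins Rpl5 and the small ribosomal RNA of the large subunit in a particle that binds MDM2 and so stabilizes p53. It read 12363.4, 14984.9 and 12661.1 against 10242.1, 9744.5 and 10113.4, without overlap, and rose by 0.39 ± 0.05 (limma adjusted p = 0.0001653). Rpl5 was not named alone by a probe set.

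Rpl22, an RNA-binding protein that T cell development in the mouse needs, had 3 tested probe sets, all called higher. The brightest read 16048.0, 20797.0 and 18789.5 in knockdown and 14138.4, 13184.4 and 13788.5 in wild type, with no overlap, and gave 0.25 ± 0.04 (limma adjusted p = 0.0008773). The dimmest of the 3 read 1670.6, 1140.5 and 1549.6 against 719.4, 730.9 and 717.6 and gave 0.94 ± 0.12 (limma adjusted p = 0.000244). The direction was shared, while the fitted size differed by more than the standard errors. The other large-subunit genes called higher, named after their values were seen, were Rpl4 (0.15 ± 0.03), Rpl7 (0.14 ± 0.04) and Rpl19 (0.11 ± 0.03), with limma adjusted p of 0.005731, 0.01311 and 0.0317. Rpl7 lost its call without knockdown C, wild-type A or wild-type B (limma adjusted p = 0.05037 to 0.05616), and Rpl19 without any 1 array other than knockdown A (limma adjusted p = 0.05473 to 0.1471).

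The brightest large-subunit genes had no call in the main comparison. Rpl41, which encodes one of the shortest known peptides, read 20569.4, 32655.4 and 28093.4 in knockdown and 22022.4, 19371.0 and 20972.2 in wild type. Knockdown array A fell inside the wild-type range while B and C were far above it, and the fitted change was 0.02 ± 0.05 (limma adjusted p = 0.8527) in the main comparison and 0.36 as deposited (limma adjusted p = 0.07347). Of its 3 dimmer probe sets 2 were called higher, at 0.24 and 0.94, the latter with 456.2, 644.7 and 402.1 against 186.4, 212.5 and 269.2. Rpl37a, another zinc-binding protein, read 20432.9, 24712.6 and 23571.7 against 20319.3, 17867.6 and 19754.2. All knockdown arrays were above, A only just, and the fitted change was -0.05 ± 0.04 (limma adjusted p = 0.4432), against 0.24 as deposited (limma adjusted p = 0.04291). Rpl38, whose loss of 1 copy in the mouse causes skeletal patterning defects, read 20558.2, 24931.9 and 24323.1 against 19085.6, 18267.6 and 19274.8, without overlap, and gave 0.01 ± 0.04 (limma adjusted p = 0.831) and 0.30 as deposited (limma adjusted p = 0.01352).

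The dimmest large-subunit genes that could be tested had wide errors. Rpl12, which binds the base of the stalk beside Rplp0, read 367.2, 245.8 and 261.5 in knockdown and 180.8, 185.7 and 156.3 in wild type. Its arrays did not overlap, and its fitted change of 0.47 ± 0.18 missed the threshold (limma adjusted p = 0.07481). Rpl27a read 761.2, 448.9 and 612.8 against 374.0, 398.8 and 442.5, with array B of knockdown just above array C of wild type, and gave 0.44 ± 0.17 (limma adjusted p = 0.07977). These low signals do not show that Rpl12 or Rpl27a messenger RNA was less abundant than that of other members.

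In the small subunit 9 of 20 tested genes were called higher in the main comparison and 0 lower, with a median of 0.14, against 18.3% and 17.1% of all genes, and 18 were called higher as deposited, against 21.1%. Rps15, a protein of the head of the subunit that its precursor needs for export from the nucleus, had 2 probe sets, both called higher. The brighter over all arrays read 13801.6, 18067.5 and 17268.6 in knockdown and 12187.5, 11829.1 and 11200.9 in wild type, without overlap, and gave 0.37 ± 0.05 (limma adjusted p = 0.0004375). Rps6, the substrate of the S6 kinases that act below mTOR, read 1917.0, 1997.7 and 2028.4 against 1721.8, 1674.6 and 1716.0. These narrow groups did not overlap, and Rps6 rose by 0.25 ± 0.06 (limma adjusted p = 0.01365), but with median centring the value was 0.02 (limma adjusted p = 0.9225). Without wild-type array B or C its limma adjusted p was 0.06462 or 0.05688. Its other probe set was near background, had a fitted value of -0.63 ± 0.31 and was not called (limma adjusted p = 0.168).

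Rps26, which touches the messenger RNA at its exit from the subunit, read 14478.4, 18330.4 and 16662.7 in knockdown and 13442.6, 12182.3 and 13188.7 in wild type, without overlap, and rose by 0.22 ± 0.04 (limma adjusted p = 0.002539). Rps24 had 6 tested probe sets, of which 2 were called higher. The brightest read 17297.3, 23865.0 and 21339.9 against 16081.6, 15145.2 and 15781.1 and gave 0.13 ± 0.04 (limma adjusted p = 0.03671). That call was lost when any 1 array other than knockdown A was left out, with limma adjusted p of 0.08514 to 0.1425. Rps3 and Rps9, named after their values were seen, completed the small-subunit calls with 0.16 ± 0.04 and 0.21 ± 0.06 (limma adjusted p = 0.007334 and 0.02804). Rps3 lost its call without wild-type array C (limma adjusted p = 0.05638), and Rps9 without knockdown A or C or wild-type A or C (limma adjusted p = 0.05183 to 0.1021).

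Rps29, Rps14, Rps19 and Rps27 were not called in the main comparison at their brightest probe sets. Rps29, a zinc-binding protein of the head, read 19499.9, 28021.5 and 25672.6 in knockdown and 19763.8, 18366.6 and 19575.1 in wild type, with array A of knockdown inside the wild-type range, and gave 0.0093 ± 0.038 (limma adjusted p = 0.8896). Rps14 is the gene whose loss of 1 copy causes the red cell defect of a human myelodysplastic syndrome. It read 18439.5, 21288.4 and 20175.5 against 16648.7, 15933.8 and 16605.4, without overlap, and gave 0.01 ± 0.04 (limma adjusted p = 0.8621) and 0.28 as deposited (limma adjusted p = 0.007564). The other, dimmer probe set of Rps14 was called higher in the main comparison, at 0.19 ± 0.04 (limma adjusted p = 0.006664). Rps27, a zinc-binding protein, read 497.4, 417.1 and 246.4 against 256.6, 446.4 and 232.9. Its groups were mixed, with a fitted value of 0.17 ± 0.26 (limma adjusted p = 0.6824).

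**Figure D3:**
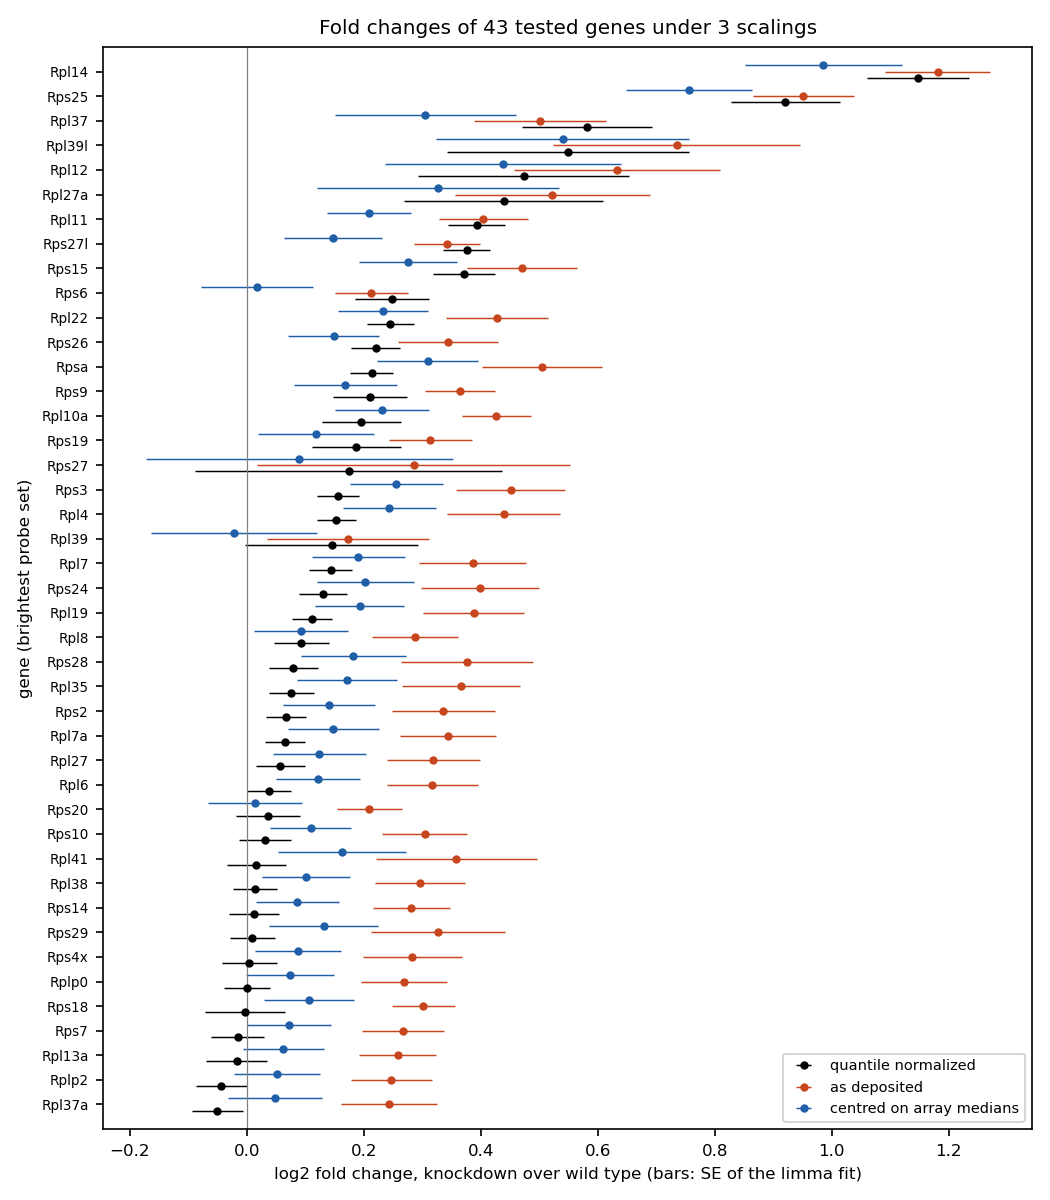
Fitted log2 fold change, knockdown over wild type, of the 43 tested ribosomal protein genes with its standard error (bars), after quantile normalization (black), as deposited (red) and with arrays centred on their medians (blue), ordered by the first. Rpl14 and Rps25 stand to the right under all 3, while the genes at the foot move from clearly above 0 as deposited to near 0 after quantile normalization.

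The paralogs whose symbol ends in the letter l are copies that can replace a member in some tissues. Rps27l, a p53 target and the paralog of Rps27, had 3 tested probe sets, all called higher, and the brightest read 10145.1, 10539.9 and 11036.4 in knockdown and 8377.1, 8186.9 and 8426.7 in wild type. The groups did not overlap, and it rose by 0.38 ± 0.04 (limma adjusted p = 5.779e-05), with 0.15 after median centring (limma adjusted p = 0.2483). Rpl39l, which is made mainly in testis, read 231.0, 193.2 and 164.7 against 90.4, 134.9 and 91.6, without overlap. Its value of 0.55 ± 0.21 missed the threshold (limma adjusted p = 0.07287). Rpl3l read 5.8 to 23.5 on the 6 arrays, within background. The pseudogene Rps4l, outside the members, read 703.7, 587.1 and 763.6 against 275.9, 264.9 and 252.4, and rose by 1.17 ± 0.12 (limma adjusted p = 4.909e-05).

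The 3 knockdown arrays did not read the members alike. Over the 69 tested member probe sets with a wild-type mean of 3000 or more, array B was the highest knockdown array for 52, A for 11 and C for 6, and A was the lowest for 55. The 11 with A highest had wild-type means of 3037 to 14041. At 13000 or more B was above A for 45 of 47 member probe sets and for 139 of the 154 that name no ribosomal protein gene (90.3%), and from 3000 to 13000 for 11 of 22 and for 1191 of 2322 (51.3%). Those that name one beside other genes had B above A for 56 of 58 and 16 of 23. The order of A and B thus moved with signal for probe sets outside the members as well. Left out in turn, A gave 19 genes called higher and 2 lower, Rplp2 and Rps18, B gave 18 higher and C 12, and the wild-type arrays gave 11 to 14, with 0 lower in each case but A. Calls over all probe sets moved too, from 5062 higher and 4515 lower in the main comparison. They were 5517 and 5192 without knockdown A, 4988 and 4527 without B, and 4097 and 3987 without C.

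**Figure D4:**
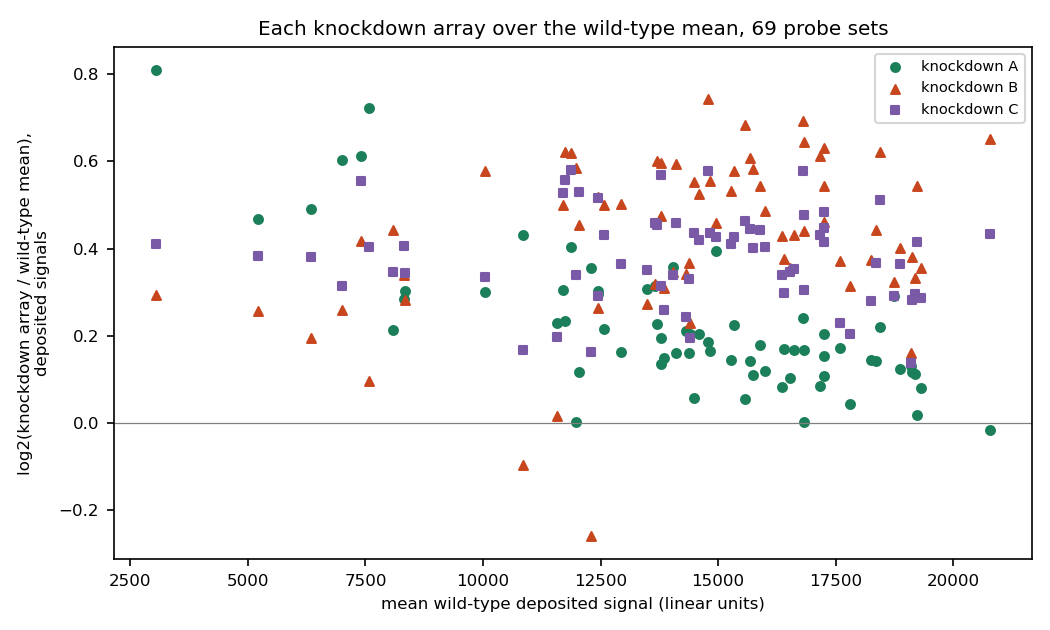
Log2 ratio of each knockdown array to the wild-type mean, in deposited signals, against the wild-type mean (linear units) for the 69 tested ribosomal protein probe sets with a wild-type mean of 3000 or more. Array B (triangles) is mostly highest on the right and array A (green) mostly lowest there, while on the left array A is mostly the highest; nearly all points lie above 0.

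Probe sets of one gene did not always give the same picture. Of the 18 genes with at least 2 such probe sets, 7 had knockdown array A highest on one and array B highest on another. They were Rpl7, Rpl13a, Rpl22, Rpl27, Rps7, Rps10 and Rps24. For Rpl13a the 4 probe sets ran from a log2 fold change of -0.02 at the brightest, which read 19828.8, 22781.4 and 20621.9 in knockdown and 17698.8, 17057.0 and 18031.3 in wild type, to 0.57 at the dimmest, which read 11335.4, 9903.4 and 10895.7 against 7303.7, 7299.2 and 7630.8. As deposited the same 4 gave 0.26 to 0.53. No gene had probe sets called in opposite directions, 24 had at least 1 called higher, and 12 had all their tested probe sets called higher. A gene with more probe sets has more ways to have at least 1 called, and these counts were not made for all genes. The name ending marks how far a probe set's probes match other transcripts. In the main comparison 13 of 26 ending in a_at, 10 of 24 in at, 3 of 3 in s_at and 15 of 39 in x_at were called higher. None of these was called lower, where 16.1% of all probe sets were called higher and 14.3% lower.

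The genes that cause Diamond-Blackfan anemia in humans were followed as a list, of which 11 of 19 had a probe set naming them alone. Read at the brightest probe set, 3 of the 11 rose in the main comparison, Rpl11, Rps26 and Rps24, and 0 fell. Of all genes 18.3% rose and 17.1% fell, and the median of the 11 was 0.08 beside 0.03 for all genes. As deposited 9 were called higher (21.1% of all genes), and after median centring 0 were (8.35%), with 0 lower in each. Dimmer probe sets of some others were called higher in the main comparison, where 16.1% of all probe sets were. Rpl35 had 3 of 6 tested probe sets called higher, Rpl27 2 of 3 and Rps10 2 of 6, while Rps7, Rps28 and Rps29 had 0. Rps19, the gene most often mutated in that anemia, read 16697.6, 16289.1 and 17212.5 in knockdown and 14815.5, 12450.8 and 13198.4 in wild type. Its groups did not overlap, and its value was 0.19 ± 0.08 (limma adjusted p = 0.09553) in the main comparison, 0.31 as deposited (limma adjusted p = 0.006431) and 0.12 after median centring (limma adjusted p = 0.4455).

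Other genes of the translation machinery were read beside the members. Of 4 ribosomal protein or related genes outside the symbol rule, 3 were called higher and 0 lower, where 18.3% and 17.1% of all genes were. Fau, which encodes a small-subunit protein fused to a ubiquitin-like one, read 14333.8, 19662.1 and 18022.7 against 12800.7, 12194.5 and 12661.2 and rose by 0.33 ± 0.05 (limma adjusted p = 0.000545). Rpl7l1 rose by 0.62 ± 0.06 and Rps19bp1, a protein that binds Rps19, by 0.29 ± 0.09 (limma adjusted p = 4.915e-05 and 0.0364), and Rpl22l1, the paralog of Rpl22, had 0.23 ± 0.12 (limma adjusted p = 0.198). Rps19bp1 lost its call after median centring (0.16, limma adjusted p = 0.45) and with cyclic loess (0.25, limma adjusted p = 0.060), which left 2 of the 4 called. In the elongation list 4 of 6 rose, among them Eef1e1, which belongs to the aminoacyl-tRNA synthetase complex (0.50 ± 0.06, limma adjusted p = 0.000157), Eef1d (0.38 ± 0.06, limma adjusted p = 0.00106) and Eef1b2 (0.35 ± 0.05, limma adjusted p = 0.000393), exchange factors of elongation. None of the 6 fell. After median centring only Eef2, the translocase, named after its values were seen, was called higher (0.26, limma adjusted p = 0.036), while Eef1e1, Eef1d and Eef1b2 had 0.27, 0.10 and 0.13 (limma adjusted p = 0.079, 0.42 and 0.30).

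Initiation factors gave 22 of 29 higher and 1 lower in the main comparison, with a median of 0.38, where 18.3% and 17.1% of all genes were called. After median centring 2 were higher and 2 lower, where 8.35% and 20.8% of all genes were. Eif4b, a cofactor of the helicase that unwinds messenger RNA leaders, read 7117.9, 7741.6 and 8164.0 in knockdown and 4170.7, 3682.0 and 3904.7 in wild type, without overlap, and rose by 1.04 ± 0.06 (limma adjusted p = 1.025e-06). Eif3e rose by 0.60 ± 0.04 and Eif3d by 0.55 ± 0.06, both subunits of the scaffold factor of initiation (limma adjusted p = 2.819e-06 and 4.276e-05). Eif5b, which joins the subunits, fell by 0.74 ± 0.07 on the log2 scale (limma adjusted p = 3.211e-05). Of 17 other genes with a terminal oligopyrimidine tract 12 rose and 1 fell. Eef1a1, Eef1b2, Eef1d, Eef2, Pabpc1, Fau, Eif3e, Eif3f, Eif3h and Eif4b among them were counted in the lists above too. Of those in this list alone, Npm1, Hnrnpa1, Naca and Btf3 rose, Tpt1 and Nap1l1 were not called, and Vim fell. Hnrnpa1, a splicing regulator, had 0.76 ± 0.06 (limma adjusted p = 8.097e-06), and Vim, the intermediate filament vimentin, -1.01 ± 0.07 (limma adjusted p = 3.594e-06). The shares of all genes are those given for initiation factors, and after median centring the list had 6 higher and 1 lower.

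Mitochondrial ribosomal proteins, which build the separate ribosome of mitochondria, gave 29 of 76 higher and 4 lower in the main comparison, with a median of 0.20, against 18.3% and 17.1% of all genes. After median centring 5 were higher and 7 lower, against 8.35% and 20.8% of all genes. The largest rises were those of Mrps35 (0.81 ± 0.11), Mrpl23 (0.73 ± 0.09) and Mrpl21 (0.62 ± 0.09), with limma adjusted p of 0.0002708, 0.0002113 and 0.0006465. Of 7 snoRNA host transcripts, whose introns give rise to RNAs that guide ribosomal RNA modification, 5 rose and 1, Snhg6, fell by 0.40 ± 0.11 on the log2 scale (limma adjusted p = 0.0186), with the same shares of all genes. Snhg12 read 1239.9, 1437.4 and 1331.2 against 473.6, 459.9 and 462.1, without overlap, and rose by 1.42 ± 0.09 (limma adjusted p = 2.149e-06). Snhg1 rose by 1.001 ± 0.09 and Snhg8 by 0.73 ± 0.08 (limma adjusted p = 1.224e-05 and 5.235e-05), and 4 of the 7 were still called higher after median centring.

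Among regulators of ribosomal protein translation and supply, 5 of 14 rose and 0 fell, where 18.3% and 17.1% of all genes did. Larp1, which binds the terminal oligopyrimidine tract, read 3780.1, 4173.0 and 3819.8 in knockdown and 2164.3, 2157.1 and 2122.3 in wild type, without overlap, and rose by 0.92 ± 0.06 (limma adjusted p = 2.784e-06). Myc, a transcription factor that drives ribosome production, rose by 0.78 ± 0.08 (limma adjusted p = 4.445e-05), and Rheb, the small GTPase that activates mTOR, by 0.62 ± 0.07 (limma adjusted p = 7.166e-05). After median centring 2 of 14 were called higher and 1 lower, where 8.35% and 20.8% of all genes were. Myc and Larp1 kept their calls there, with 0.60 and 0.66, and Rheb had 0.33 (limma adjusted p = 0.063).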

How the data were processed

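RNA of 3 knockdown and 3 wild-type megakaryocyte samples, grouped and lettered by their titles, was read on 1 Affymetrix array each. The deposited table holds 45101 probe sets as intensity on a linear scale, as its values show, and a trimmed mean that is equal on every array shows that the authors scaled the arrays to a common level. The signal software and the build were not given in the sources used here.

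The medians of log2(signal + 32) spanned 0.346 over the 6 arrays, above the limit of 0.2, so arrays were quantile normalized. Control probe sets (64) and probe sets below the 30th percentile of the mean were left out. Groups were compared with limma 3.58.1 in R 4.3.3 (lmFit, eBayes with an intensity trend, two-sided, Benjamini-Hochberg over 31526 probe sets, adjusted p of 0.05). Fold changes are on that log2 scale with the offset, which understates changes of dim genes, with SE from the fit and n = 3 per group. The fit was tested on simulated data. A gene was read at its brightest probe set among those naming 1 symbol in the platform annotation, with symbols updated through RefSeq GRCm38.p6. Background was the highest of 27 bacterial control probe sets on each array.

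The members and lists were chosen with earlier results of these data known. Genes named were Gata1, the 8 called members with the largest rise whose arrays do not overlap (0 were called lower), the 5 brightest and 5 dimmest tested, paralogs with a letter l, up to 6 Diamond-Blackfan anemia genes, Rps14, Rps6, Rpl22 and Rplp0, and up to 3 called genes per comparison list. Exceptions are marked.

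Alternatives were other scalings, offsets of 1 and 100, no filter and a 50th percentile filter, each array left out, the replicate letter as a block, no trend, array weights, other choices of probe set and members, and quantile normalization fitted without ribosomal protein probe sets.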

Additional observations from a re-analysis of the deposited data

How the results depend on the processing

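Among the results on ribosomal protein genes, scaling moved the counts most. The count of genes called higher was 16 in the main comparison, 39 as deposited, 38 with cyclic loess, 7 with median centring and 6 without the intensity trend (Rpl11, Rpl14, Rpl37, Rps15, Rps25 and Rps27l), and 5 of the 10 members that read under 50% of the array maximum. For probe sets the counts were 41, 72, 74, 18 and 20. The median log2 fold change of 0.13 became 0.34 as deposited, 0.36 with cyclic loess, 0.20 with quantile normalization fitted without ribosomal protein probe sets, 0.46 over members under 50% of the maximum and 0.19 without probe sets ending in x_at. The last and the refitted normalization were chosen after seeing the data, as was adding Rps4l, which gave 17 genes. Over all probe sets, 5062 were called higher, and 2609 with median centring. With array weights 3 member probe sets were called lower.

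Leaving out 1 array gave 11 to 19 genes and 30 to 49 probe sets called higher, 0 to 2 genes and 0 to 4 probe sets called lower, all of these without knockdown array A, and a median of 0.097 to 0.14. Over all probe sets it gave 3918 to 5517 higher and 3465 to 5192 lower. Of the 16 called genes 10 kept their call in all 6 of these fits, and Rpl7, Rpl19, Rps3, Rps6, Rps9 and Rps24 lost it in at least 1. Samples sharing a letter had deviations that correlated at -0.042, -0.017 and -0.0096, so the letters were not taken as pairs. With a replicate block of the letter 14 genes and 38 probe sets were called higher. The share of all genes called in that fit is not given here.

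For 24 named genes, 364 of 432 values kept their direction and side of the threshold, 26 passed it newly, 20 no longer passed and 22 turned direction, all but 1 of these from a main value that was not called. Rps6 gave -0.19 as the mean of its probe sets. Read as such means, 3 of the 24 passed the threshold newly and 1 no longer passed. The 3 were Rpl41 (0.33, limma adjusted p = 0.018), Rps14 (0.10, limma adjusted p = 0.023) and Rpl39l (0.55, limma adjusted p = 0.049). The 1 was Rps24 (0.17, limma adjusted p = 0.13). Rpl37a gave 0.24 as deposited, 0.048 median centred, 0.26 with cyclic loess and 0.15 as the mean of its probe sets, and Rplp2 gave 0.25, 0.052 and 0.27 in the first 3. With 1 array left out, Rpl38 ran from -0.010 to 0.040, Rps27 from -0.017 to 0.44 and Rps14 from -0.028 to 0.033, each lowest without knockdown A, and Rpl41 from -0.023 to 0.073 and Rps29 from -0.0097 to 0.043, lowest without knockdown B. Rplp0 ran from -0.013, without knockdown C, to 0.023. With array weights Rps27 gave -0.073 and Rps14 -0.0075, and as the mean of its probe sets Rps29 gave -0.050. The cause of these turns was not tested. Signals near the array maximum and near the bacterial controls limit the brightest and dimmest genes.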
